A study of Mus musculus with 12 samples.

Results

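The comparison described here set all 6 arrays of cells given palmitic acid against all 6 arrays of cells without it, with added FABP4 as the second factor. These were all 12 arrays of the series, and the split followed the sample labels, so no expression value was used to choose them. The cells were RAW264.7, a mouse macrophage line, and each array held the total RNA of 1 sample after 24 h. The 4 groups, of 3 arrays each, were palmitic acid with FABP4 (0.2 mM palmitic acid and 200 nM recombinant FABP4), palmitic acid alone (0.2 mM), FABP4 alone (200 nM) and control (neither agent). All 4 groups were kept in medium with 0.5% BSA free of fatty acids, so the control cells had the carrier protein as well. FABP4 was added as a protein, not expressed from a transgene, and the cells are a single line grown in culture. Whether the 3 arrays of a group stand for separate cultures is not in the labels, so the p-values measure only how these samples vary, which may be technical variation.

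Palmitic acid is a saturated fatty acid that cells activate to a CoA ester and then oxidise in mitochondria, store as triglyceride in lipid droplets or build into phospholipids and ceramides. Fatty acids and their derivatives are ligands of the PPAR nuclear receptors, which switch on genes of fatty acid oxidation, binding and droplet coating. The LXR receptors, which respond to oxysterols, drive cholesterol efflux transporters and, through SREBP-1c, fatty acid synthesis. In macrophages an excess of saturated fatty acid is known as a source of endoplasmic reticulum stress and of inflammatory signalling. FABP4 binds fatty acids in the cytosol of macrophages and fat cells, and it is also found outside cells.

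A level is the log2 of a probe's processed signal over the 75th percentile of its array, and levels of different probes were not compared with each other. A log2 fold change is the mean of the palmitic acid effects in the arms with and without FABP4, given ± SE from limma over the 12 arrays (n = 3 per group). The call threshold was an adjusted p under 0.05 (Benjamini-Hochberg over the 17587 genes tested). Each array had 59305 non-control spots, of which 42.8% to 46.7% were well above background and 0 were saturated. With 12 arrays the median SE of the main effect was 0.06, and the 95% confidence interval of a median gene reached 0.13 to each side. This is the precision of the 12-array fit, which has no term for the slides described below. Of 12 macrophage markers, 11 were above background on all arrays, and Mertk was on none. Their summed level, on the linear scale in units of the array's 75th percentile, was 1480 to 1561 on arrays with palmitic acid and 1398 to 1502 on arrays without.

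The arrays lay on 2 slides, and the split was uneven. Slide 2 held all 6 arrays with palmitic acid and FABP4 arrays 2 and 3, while the 3 controls and FABP4 array 1 lay on slide 1. The palmitic acid effect without FABP4 therefore lay wholly between slides, and for that contrast alone slide and group cannot be told apart. The effect was refitted with slide as a block, and on slide 2 alone. On slide 2 its size rests on the 3 arrays of palmitic acid with FABP4 against FABP4 arrays 2 and 3. The palmitic acid arrays were also in the slide 2 fit and entered its variance estimate. There the arrays with both agents lay wholly in row 2 and the FABP4 arrays in row 1, so in the slide 2 contrast row and group cannot be told apart. The slide term itself was estimated from 1 group, FABP4, with array 1 on slide 1 (row 2) and arrays 2 and 3 on slide 2 (row 1). The first principal component, the axis of largest variation between arrays (31.7% of the variance), separated the slides. It was at -27.7 to -15.4 on slide 1 and at 2.55 to 18.8 on slide 2. FABP4 array 1 was at -27.7 and FABP4 arrays 2 and 3 at 2.55 and 3.81. The arrays with palmitic acid were at 9.38 to 18.8. Genes called with the same sign in the 12-array fit, in the fit with slide as a block and on slide 2 are described below as called in all 3 fits. The 3 fits share arrays, and each uses FABP4 arrays 2 and 3, so they are not separate checks of a gene.

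For the palmitic acid main effect 2932 of 17587 genes were called (16.7%), of which 1869 rose (10.6% of those tested) and 1063 fell (6.04%). Most changes were small. The median size among called genes was 0.26 on the log2 scale, and 31 genes rose and 2 fell by over 1. Arrays with and without palmitic acid did not overlap for 1432 of the called genes, and for 8.52% of all genes tested. The median log2 fold change of all genes was 0.03. The share of called genes that rose depended on the scaling: it was 63.7% here, 52.3% after quantile normalization, 51.3% with the percentile taken over probes above background on all arrays, and 82.3% with no scaling. With slide as a block, 539 genes were called (3.06%), 425 higher and 114 lower, and 432 of them were among the 2932. On slide 2 alone, 260 were called (1.48%), 216 higher and 44 lower. A total of 223 genes (1.27%) were called in all 3 fits, 191 higher and 32 lower with palmitic acid.

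The genes of lipid storage and fatty acid oxidation with the largest changes were Plin2, Hilpda and Cpt1a, each about as high in one FABP4 arm as in the other. Plin2 encodes perilipin 2, the coat protein of lipid droplets. Its lowest, median and highest levels were 8.26, 8.35 and 8.44 on the 6 arrays with palmitic acid, against 6.88, 6.96 and 7.03 on the 6 without. The log2 fold change was 1.40 ± 0.04 (2.63-fold, limma adjusted p = 6.21e-08), and the groups lay far apart with no overlap. Hilpda encodes a small droplet protein that inhibits the triglyceride lipase ATGL. Its levels were 6.05, 6.10 and 6.12 (lowest, median, highest) with palmitic acid, against 4.58, 4.67 and 4.75 without, a log2 fold change of 1.43 ± 0.04 (limma adjusted p = 2.00e-08). Every array with palmitic acid was above every array without. Of 13 lipid droplet and triglyceride genes tested, 2 rose and 0 fell, beside 10.6% and 6.04% of all genes tested. They were this pair, and the other 11 did not pass. The median log2 fold change of the list was -0.01, beside 0.03 for all genes, so the list as a whole did not move with Plin2 and Hilpda.

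Cpt1a encodes the liver isoform of carnitine palmitoyltransferase 1, which commits long-chain acyl groups to mitochondrial oxidation. Its lowest, median and highest levels were 1.70, 1.78 and 1.83 with palmitic acid, against 0.23, 0.33 and 0.51 without. The log2 fold change was 1.42 ± 0.04 (limma adjusted p = 3.54e-08), again with no overlap. Among 23 oxidation and PPAR target genes tested, 4 rose and 1 fell (21.7% called, beside 16.7% of all genes), and the median was 0.05. The other risers were Fabp3, Slc25a20, which carries acylcarnitines into mitochondria, and Pparg itself, at 0.23 to 0.59. Slc25a42, a mitochondrial CoA carrier, fell (-0.41 ± 0.08). Slc25a20 was at 0.43 ± 0.12 over 12 arrays and at 0.03 with slide as a block, and the enzymes of the beta-oxidation spiral itself, such as Acadm (-0.06), Acadl (0.06) and Hadha (0.06), did not pass. After quantile normalization 2 members fell. Cpt1a and Fabp3 were the 2 members called with slide as a block (3.06% of all genes) and also on slide 2 (1.48%).

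The cells' own Fabp4 transcript also rose. Fabp4 had levels of 2.02, 2.30 and 2.39 (lowest, median, highest) with palmitic acid, against 1.54, 1.62 and 1.74 without. The log2 fold change was 0.65 ± 0.05 (1.57-fold, limma adjusted p = 6.64e-05), and the groups did not overlap. It was 0.74 ± 0.07 in cells that also had added FABP4 protein and 0.56 ± 0.07 in cells that did not, and this difference did not pass (interaction 0.18 ± 0.11, limma adjusted p = 0.723). Fabp3, the heart-type fatty acid binding protein, had levels of 3.74, 3.95 and 4.10 with palmitic acid, against 3.21, 3.32 and 3.54 without, and rose by 0.59 ± 0.05 (limma adjusted p = 6.57e-05). Of 13 genes of fatty acid uptake and binding, 4 rose (30.8%, beside 10.6% of all genes) and 0 fell, with a median of 0.06. After quantile normalization 2 fell. Fabp5, the epidermal form, and Slc27a1, a fatty acid transport protein, completed the risers at 0.19 and 0.25. The scavenger receptor Cd36, at 0.08, and the acyl-CoA synthetase Acsl1, at 0.01, did not pass.

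**Figure D1:**
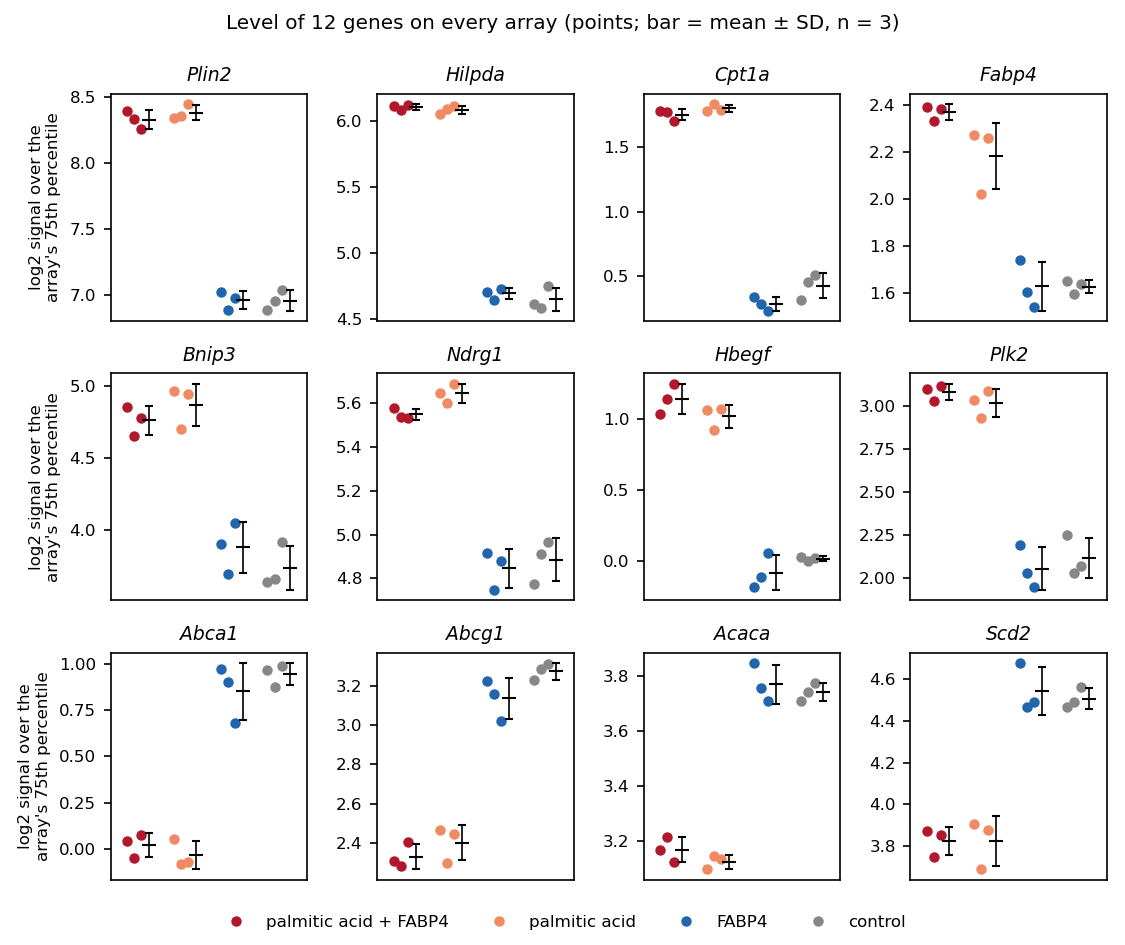
Levels of 12 named genes on each of the 12 arrays, as log2 signal over the array's 75th percentile (vertical axis, a separate range for each gene). Points are arrays, coloured by group, and bars show the mean ± SD of 3 arrays. The 6 arrays with palmitic acid lie above the 6 without for the first 8 genes and below them for Abca1, Abcg1, Acaca and Scd2, with no overlap.

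Several enzymes of fatty acid synthesis fell. Falls were called for 6 of 13 genes tested (46.2%, beside 6.04% of all genes), with 0 rises and 7 not called. The median log2 fold change of the list was -0.24. Acaca encodes acetyl-CoA carboxylase 1, which makes the malonyl-CoA for fatty acid synthesis. Its levels were 3.10, 3.14 and 3.21 with palmitic acid, against 3.71, 3.75 and 3.85 without, a log2 fold change of -0.61 ± 0.03 (limma adjusted p = 7.59e-06). No array with palmitic acid reached the level of any array without it, and 3 further Acaca probes moved the same way (-0.64 to -1.03). Scd2, a stearoyl-CoA desaturase that puts the first double bond into saturated fatty acids, had levels of 3.69, 3.86 and 3.91 with palmitic acid, against 4.46, 4.49 and 4.68 without, and fell by 0.70 (log2, SE 0.05, limma adjusted p = 4.94e-05). The other members that fell were Fasn (fatty acid synthase), Elovl6 and Elovl5 (elongases) and Scd1, at -0.68 to -0.24. Srebf1, the gene of SREBP-1c, was at -0.34 and did not pass. Scd2, Fasn and Acaca were the 3 called with slide as a block, and Scd2 and Acaca the 2 on slide 2 alone.

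The cholesterol efflux transporters Abca1 and Abcg1 fell together. Abca1 hands cholesterol and phospholipid to lipid-poor apolipoproteins. Its lowest, median and highest levels were -0.08, -0.003 and 0.07 with palmitic acid, against 0.68, 0.94 and 0.99 without, and the log2 fold change was -0.90 ± 0.06 (limma adjusted p = 1.01e-05). Abcg1, which exports cholesterol to HDL, had levels of 2.28, 2.35 and 2.46 with palmitic acid, against 3.02, 3.23 and 3.31 without, a log2 fold change of -0.84 ± 0.05 (limma adjusted p = 7.59e-06). For both the groups did not overlap, and both were called in all 3 fits. The LXR and efflux list as a whole did not move with Abca1 and Abcg1. Of 14 genes tested, these included, 3 fell and 2 rose (35.7% called, beside 16.7% of all genes), with a median of 0.04. Nr1h3, the gene of LXR alpha, fell by 0.19 (log2), while Npc1 and Npc2, which move cholesterol out of lysosomes, rose by 0.18 and 0.12. Apoe, at 0.04, and Mylip, at -0.42, did not pass. The risers did not hold: 0 were called without control array 3, palmitic acid array 2 or 3, or array 2 of palmitic acid with FABP4, and 1 without control array 1, FABP4 array 2 or 3, or array 1 or 3 of palmitic acid with FABP4. Abca1 and Abcg1 were the 2 members called with slide as a block.

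Of 26 genes of cholesterol synthesis tested, 2 rose and 2 fell, a share of 15.4% called beside 16.7% of all genes, and the median was 0.08. There were 4 risers without FABP4 array 1. Srebf2, the gene of SREBP-2, rose by 0.43 ± 0.05 (limma adjusted p = 0.000373), although a second probe gave 0.08 at an unadjusted limma p of 0.0878. Stard4, a cytosolic sterol carrier, rose by 0.24 ± 0.04. Idi1, an isomerase of the mevalonate pathway, was among those that fell (-0.36 ± 0.06). The fit with slide as a block called 4 members higher and 1 lower, beside 3.06% of all genes, and limma called 0 on slide 2.

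Several genes that respond to low oxygen, some of them glycolytic, rose. Of 32 tested, 15 rose and 1 fell (50% called, beside 16.7% of all genes), and the median log2 fold change was 0.15. Bnip3, a mitophagy receptor of the outer mitochondrial membrane, had levels of 4.65, 4.82 and 4.96 with palmitic acid, against 3.63, 3.79 and 4.04 without. The log2 fold change was 1.01 ± 0.08 (limma adjusted p = 5.66e-05), and 2 further probes gave 0.95 and 0.96. Ndrg1 had levels of 5.53, 5.59 and 5.69 with palmitic acid, against 4.75, 4.89 and 4.97 without, a log2 fold change of 0.73 ± 0.04 (limma adjusted p = 9.70e-06). All arrays with palmitic acid were above all without for both genes. Adm, the vasodilator peptide adrenomedullin, rose by 1.34 ± 0.14 (limma adjusted p = 0.000349), but its value was 1.74 ± 0.20 without FABP4 and 0.93 ± 0.20 with it, and on slide 2 it was 0.78 ± 0.22 and did not pass (limma adjusted p = 0.145). Further risers were Ankrd37, Pdk1, Ero1l, Pfkl, Bnip3l and the lactate exporter Slc16a3, at 0.40 to 0.68. The glycolytic enzymes Pgk1, Pgam1 and Tpi1 rose by 0.17 to 0.22. Pfkfb3, which makes an activator of phosphofructokinase, fell (-0.13 ± 0.03). Hif1a itself, at -0.09, the glucose transporter Slc2a1, at 0.08, and Ldha, at 0.09, did not pass. The fit with slide as a block called 7 higher and 0 lower, and on slide 2 the 4 called were Bnip3, Ndrg1, Ero1l and Bnip3l.

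Promoters of these genes were read from RefSeq (GRCm38.p6) as windows of 300 bases around the annotated start, and 52 of 65 named genes had one. They are shown because Plin2, Hilpda and Bnip3 were among the largest risers of the droplet and low-oxygen lists and Abca1 among the largest falls, and each of the 4 has a window that holds ACGTG, the core of the hypoxia response element (capitals, searched on both strands). In Plin2, Bnip3 and Abca1 the match lies in CACGTG, so both strands match in overlap and all 6 letters are in capitals. Hilpda has 2 annotated windows, and the one not shown holds no ACGTG. Of the other largest risers with a window, Dok7, Cpt1a and Adm have no ACGTG in theirs, and Crispld2 has it.
Plin2, chr4:86670010-86670309, minus strand: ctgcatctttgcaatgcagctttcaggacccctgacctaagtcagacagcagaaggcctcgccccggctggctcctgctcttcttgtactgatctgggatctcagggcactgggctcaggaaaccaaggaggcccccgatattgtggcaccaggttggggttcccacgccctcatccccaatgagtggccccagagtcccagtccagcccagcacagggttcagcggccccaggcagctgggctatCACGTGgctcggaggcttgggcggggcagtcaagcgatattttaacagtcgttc
Hilpda, chr6:29272376-29272675, plus strand: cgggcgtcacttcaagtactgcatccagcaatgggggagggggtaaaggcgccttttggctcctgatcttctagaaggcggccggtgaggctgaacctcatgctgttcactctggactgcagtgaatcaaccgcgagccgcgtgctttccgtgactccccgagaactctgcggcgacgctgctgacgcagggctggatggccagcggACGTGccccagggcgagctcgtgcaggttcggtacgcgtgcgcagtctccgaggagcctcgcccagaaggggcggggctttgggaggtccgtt
Bnip3, chr7:138909457-138909756, minus strand: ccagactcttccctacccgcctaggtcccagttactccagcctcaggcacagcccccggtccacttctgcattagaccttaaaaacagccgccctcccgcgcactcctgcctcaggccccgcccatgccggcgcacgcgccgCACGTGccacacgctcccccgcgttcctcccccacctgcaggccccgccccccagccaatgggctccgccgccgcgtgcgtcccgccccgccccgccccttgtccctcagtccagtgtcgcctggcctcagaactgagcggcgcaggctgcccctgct
Abca1, chr4:53159846-53160145, minus strand: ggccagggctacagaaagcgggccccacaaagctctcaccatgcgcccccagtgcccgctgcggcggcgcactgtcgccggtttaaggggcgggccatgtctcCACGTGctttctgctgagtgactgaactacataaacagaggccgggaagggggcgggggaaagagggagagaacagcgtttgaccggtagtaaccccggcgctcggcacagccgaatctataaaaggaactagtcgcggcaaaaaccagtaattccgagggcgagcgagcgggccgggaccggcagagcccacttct
The letters ACGTG were in 24.8% of promoters of genes that rose, 25.1% of those of genes that fell and 25.0% of those of all genes tested. A nuclear receptor half-site, AGGTCA, was in 14.7% of promoters of risers, 11.8% of those of falling genes and 13.0% of all tested. TGATGCAA, a C/EBP-ATF composite, was in 0.812% of promoters of risers, 0.860% of those of falling genes and 0.698% of all tested. A match is a description of these letters and does not show a bound site.

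Some genes of the endoplasmic reticulum stress response rose. Rises were called for 9 of 23 tested (39.1%, beside 10.6% of all genes), with 0 falls and 14 not called. The median log2 fold change was 0.10. Dnajb9, a co-chaperone of the reticulum lumen, had levels of 1.91, 2.02 and 2.12 with palmitic acid, against 1.20, 1.39 and 1.46 without, and rose by 0.64 ± 0.05 (limma adjusted p = 5.10e-05). Hspa5, the chaperone BiP, rose by 0.23 ± 0.04 (limma adjusted p = 0.00234). The other 7 risers, among them Herpud1, Syvn1, Creld2 and Manf of protein folding and disposal, lay at 0.11 to 0.30. Xbp1 (0.10), Atf6 (0.00) and Hsp90b1 (0.00) did not pass. Slide as a block left 7 called, all higher, and on slide 2 the 3 called were Dnajb9, Syvn1 and Manf.

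Members of the ATF4 branch of the integrated stress response moved in both directions. Of 34 genes tested, 10 rose and 3 fell (38.2% called, beside 16.7% of all genes), with a median of 0.02. Ppp1r15a (GADD34), which directs the dephosphorylation of eIF2 alpha, had levels of 5.30, 5.34 and 5.43 with palmitic acid, against 4.69, 4.71 and 4.85 without, a log2 fold change of 0.61 ± 0.04 (limma adjusted p = 2.76e-05). Atf3, a stress-induced transcription factor, had levels of 7.17, 7.23 and 7.26 with palmitic acid, against 6.65, 6.70 and 6.76 without, and rose by 0.52 ± 0.03 (limma adjusted p = 8.22e-06). The groups did not overlap for either. Gdf15, a secreted stress cytokine, rose by 0.83 ± 0.09, and Ddit3 (CHOP) by 0.28 ± 0.06. The amino acid transporter subunit Slc3a2 rose by 0.48 ± 0.04, while its partner Slc7a5 fell (-0.17 ± 0.05). Asns (-0.02), Trib3 (0.09), Psat1 (0.00) and Phgdh (0.04), enzymes and a pseudokinase that ATF4 is known to induce, did not pass. The falls numbered 5 after quantile normalization and 1 with no scaling, and 1 without control array 1 or 3, FABP4 array 1, palmitic acid array 1, or array 2 or 3 of palmitic acid with FABP4. Adding slide as a block left 6 rises and 1 fall. In all 3 fits the called members were Gdf15, Ppp1r15a, Atf3 and Slc3a2.

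Among immediate-early and MAPK-responsive genes the directions were mixed. Of 29 tested, 9 rose and 6 fell (51.7% called, beside 16.7% of all genes), with a median of -0.05. Plk2, a polo-like kinase induced by stress, had levels of 2.93, 3.07 and 3.12 with palmitic acid, against 1.94, 2.05 and 2.25 without, a log2 fold change of 0.97 ± 0.06 (limma adjusted p = 8.22e-06). Klf2, a transcription factor that restrains myeloid activation, fell (-0.81 ± 0.10, limma adjusted p = 0.000686), with -0.71 ± 0.17 on slide 2 (limma adjusted p = 0.103). The MAPK phosphatase Dusp4 rose (0.40 ± 0.05), whereas Dusp2 fell (-0.41 ± 0.03, limma adjusted p = 6.25e-05), and both were called in all 3 fits. Egr1 and Egr2 fell by 0.24 and 0.31 and were at -0.08 and -0.17 with slide as a block. Fos (0.02) and Myc (-0.17) did not pass. With slide as a block 3 rose and 1 fell, and with no scaling the falls numbered 3. Of 19 p53 target genes, 4 rose and 3 fell (36.8% called, beside 16.7% of all genes). The split was 4 and 6 after quantile normalization and 2 and 0 with slide as a block. The risers numbered 2 without control array 1 or 3, palmitic acid array 2 or 3, or array 1 or 2 of palmitic acid with FABP4. Mdm2, the ubiquitin ligase of p53, rose by 0.39 ± 0.04 (limma adjusted p = 0.000466), and Cdkn1a (p21) by 0.16 ± 0.05, while Gadd45a fell (-0.38 ± 0.07).

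Several secreted growth factors and proteases rose. Of 24 tested, 9 rose and 4 fell (54.2% called, beside 16.7% of all genes), with a median of 0.14. Hbegf, an EGF receptor ligand shed from the cell surface, had levels of 0.92, 1.06 and 1.24 with palmitic acid, against -0.18, 0.01 and 0.06 without, and the log2 fold change was 1.11 ± 0.05 (limma adjusted p = 2.93e-06). The lowest array with palmitic acid stood well above the highest without. Plau, the urokinase plasminogen activator, rose by 0.64 ± 0.08, Vegfa by 0.37 ± 0.04 and Igf1 by 0.25 ± 0.04. The gelatinase Mmp9 (-0.57 ± 0.08), its inhibitor Timp1 (-0.35 ± 0.06), Mmp14 and Pdgfb fell. The falls numbered 2 with no scaling, and 2 without control array 2 or 3, palmitic acid array 3, or array 3 of palmitic acid with FABP4. Slide as a block left 6 higher and 0 lower, and on slide 2 Hbegf, Gdf15 and Plau were called.

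In sphingolipid metabolism 3 genes rose and 3 fell of 22 tested (27.3% called, beside 16.7% of all genes). The median was 0.02, beside 0.03 for all genes. Sphk1 makes sphingosine 1-phosphate. Its levels were 1.04, 1.12 and 1.33 with palmitic acid, against 0.25, 0.33 and 0.40 without, a log2 fold change of 0.83 ± 0.05 (limma adjusted p = 9.70e-06) with no overlap. Sgpl1, the lyase that breaks sphingosine 1-phosphate down, rose by 0.21 ± 0.05. The ceramide synthases Cers4 (-0.45 ± 0.05, limma adjusted p = 0.000349) and Cers5 (-0.29 ± 0.03) fell, as did Kdsr (-0.36 ± 0.08). The serine palmitoyltransferase subunits Sptlc1 (-0.17) and Sptlc2 (0.16), which use palmitoyl-CoA, did not pass. Of 13 prostaglandin genes, 3 rose and 1 fell (30.8% called, beside 16.7% of all genes). The falls numbered 2 without FABP4 array 2, palmitic acid array 2, or array 1 of palmitic acid with FABP4. Ptger2, a receptor of prostaglandin E2, had levels of 0.33, 0.57 and 0.77 with palmitic acid, against 1.09, 1.31 and 1.45 without, and fell (-0.74 ± 0.07, limma adjusted p = 0.00015), with -0.63 ± 0.13 on slide 2 (limma adjusted p = 0.0635). Ptgir, the prostacyclin receptor, rose by 0.30 ± 0.05 and Hpgds, the haematopoietic prostaglandin D synthase, by 0.44 ± 0.09. Ptgs2 was at 0.15 and did not pass.

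Many lysosomal genes had small rises. Of 30 tested, 18 rose and 0 fell, so 60% rose, beside 10.6% of all genes. The median log2 fold change was 0.14, but all except Gpnmb and Sqstm1 lay under 0.20. Gpnmb, a glycoprotein of lipid-laden macrophages, had levels of 6.34, 6.36 and 6.44 with palmitic acid, against 5.82, 5.88 and 6.01 without, and rose by 0.48 ± 0.04 (limma adjusted p = 4.15e-05). Sqstm1, the autophagy receptor p62, rose by 0.30 ± 0.04 (limma adjusted p = 0.00136). The remaining risers were hydrolases such as Lipa and Gaa, the cathepsins Ctsa, Ctsb, Ctss and Ctsz, and the proton pump subunits Atp6v1a and Atp6v1b2, at 0.12 to 0.19. The count depended on the scaling, with 11 higher and 1 lower after quantile normalization and 5 higher with no scaling, and it fell to 9 to 11 when control array 1 or 3, palmitic acid array 3, or array 1 or 2 of palmitic acid with FABP4 was left out. With slide as a block 4 were called and on slide 2 alone 1, Gpnmb, while the median was 0.17 and 0.18 in those fits, beside 0.05 and 0.06 for all genes. Tfeb (-0.10) and Tfe3 (-0.15), transcription factors of lysosomal genes, did not pass.

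Genes of osteoclast differentiation and function, a fate that RAW264.7 cells can take, were also among those that moved. Of 14 tested, 8 rose and 3 fell (78.6% called, beside 16.7% of all genes), with a median of 0.26. Dcstamp, a membrane protein needed for fusion into multinucleated cells, had levels of 3.60, 3.68 and 3.77 with palmitic acid, against 2.89, 2.98 and 3.11 without, and rose by 0.70 ± 0.04 (limma adjusted p = 1.28e-05). Car2, carbonic anhydrase 2, rose by 0.46 ± 0.04 (limma adjusted p = 0.000148), Atp6v0d2 by 0.59 ± 0.06, Ocstamp by 0.48 ± 0.06 and Ctsk by 0.33 ± 0.05. Nfatc1, the master transcription factor of the lineage, fell (-0.47 ± 0.09), as did Tnfrsf11a, the gene of RANK (-0.19 ± 0.06), and Mmp9. Nfatc1 was at -0.24 and Tnfrsf11a at -0.02 with slide as a block, and neither passed there. In all 3 fits, which called 1.27% of all genes, the called members were Dcstamp, Car2 and Atp6v0d2.

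The heptamer TGAGTCA, the AP-1 motif, was searched on both strands in the same RefSeq windows (GRCm38.p6). Gpnmb and Sphk1 are shown because each led its list and has a window with 1 match, in capitals. Sphk1 has 5 annotated windows, of which 2 hold a match and 3 do not, and the first of the matching ones is printed.
Gpnmb, chr6:49036268-49036567, plus strand: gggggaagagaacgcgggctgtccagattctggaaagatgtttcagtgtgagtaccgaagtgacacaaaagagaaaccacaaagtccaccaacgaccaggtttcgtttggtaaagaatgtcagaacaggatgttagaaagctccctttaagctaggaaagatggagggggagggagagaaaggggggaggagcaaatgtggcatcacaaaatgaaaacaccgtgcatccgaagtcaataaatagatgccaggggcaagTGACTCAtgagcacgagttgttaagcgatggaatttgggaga
Sphk1, chr11:116531587-116531886, plus strand: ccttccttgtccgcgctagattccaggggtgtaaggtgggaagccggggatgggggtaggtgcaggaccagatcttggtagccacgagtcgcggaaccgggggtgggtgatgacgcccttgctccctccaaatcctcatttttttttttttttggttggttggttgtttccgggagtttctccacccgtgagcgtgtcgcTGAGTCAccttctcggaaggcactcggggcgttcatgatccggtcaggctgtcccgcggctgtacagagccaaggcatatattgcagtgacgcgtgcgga
The motif was in 6.33% of promoters of genes that rose, 2.80% of those of genes that fell, 3.94% of those of all genes tested and 5.20% of all promoters in the table. Among risers over 0.5 on the log2 scale the share was 7.98%. These shares are descriptions, and no test was made of them.

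Macrophage identity genes did not move as a block. Of 20 tested, 2 rose and 4 fell (30% called, beside 16.7% of all genes), with a median of -0.05. Cd68, a lysosome-associated glycoprotein, rose by 0.30 ± 0.04 (limma adjusted p = 0.000946) and Csf1r by 0.18 ± 0.04. Cx3cr1, the fractalkine receptor, fell (-0.50 ± 0.05, limma adjusted p = 0.000316), as did Maf (-0.66 ± 0.10), Itgam (-0.27 ± 0.04) and Fcgr2b (-0.22 ± 0.06). There were 1 rise and 1 fall with slide as a block. Adgre1 (-0.08), Spi1 (-0.23) and Lyz2 (-0.03) did not pass. Of 12 scavenger and lipoprotein receptors, 4 rose and 1 fell (41.7% called, beside 16.7% of all genes), and with slide as a block 1 rose. Scarb2, which carries glucocerebrosidase to lysosomes, rose by 0.27 ± 0.05 (limma adjusted p = 0.0068), while Stab1 fell (-0.43 ± 0.08). Msr1 (0.04) and Scarb1 (0.13) did not pass.

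Inflammatory genes did not rise as a group. Of 34 NF-kB response genes tested, 11 fell and 2 rose (38.2% called, beside 16.7% of all genes), with a median of -0.02. Csf2, the gene of GM-CSF, had levels of 1.53, 1.57 and 1.71 with palmitic acid, against 2.10, 2.21 and 2.42 without, a log2 fold change of -0.64 ± 0.05 (limma adjusted p = 3.88e-05). Lcn2, a siderophore-binding protein, fell by 0.39 (log2, SE 0.05, limma adjusted p = 0.00058). Tnf (-0.19 ± 0.04), Il1b (-0.15 ± 0.03), Il1a (-0.30 ± 0.06) and Nfkbia (-0.15 ± 0.04) fell over the 12 arrays, and with slide as a block they were at -0.09, -0.13, -0.26 and -0.07 and did not pass. Cxcl2, a neutrophil chemokine, rose by 0.45 ± 0.12, and Csf3 by 0.33 ± 0.04. Il6 (-0.03), Nos2 (0.09) and Ccl2 (0.06) did not pass. In the fit with slide as a block 2 members were called, Csf2 and Lcn2, both lower, and on slide 2 Csf2 alone. Leaving out control array 1 or 3, palmitic acid array 2, or array 1 of palmitic acid with FABP4 left 7 falls over the remaining 11 arrays. There was 1 riser without control array 1, 2 or 3, palmitic acid array 1 or 3, or array 1 or 3 of palmitic acid with FABP4.

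Toll-like receptor and inflammasome genes had 7 risers (31.8%, beside 10.6% of all genes) and 0 falls of 22 tested, with a median of 0.08. The risers numbered 4 without control array 1 or 3 or without array 2 of palmitic acid with FABP4. Tlr13, a receptor of bacterial ribosomal RNA, rose by 0.36 ± 0.04 (limma adjusted p = 0.000527) and was the 1 member called with slide as a block and on slide 2. Ticam1, the adaptor TRIF, rose by 0.25 ± 0.04 (limma adjusted p = 0.00585). Tlr4 (-0.08), Tlr2 (0.12), Nlrp3 (-0.22) and Casp1 (0.07) did not pass. Of 37 interferon response genes, 7 rose and 2 fell (24.3% called, beside 16.7% of all genes), with a median of 0.04. After quantile normalization the counts were 3 and 4. There were 4 risers without control array 2 or 3, FABP4 array 2, palmitic acid array 3, or array 1 or 2 of palmitic acid with FABP4. Igtp, a GTPase induced by interferon gamma, rose by 0.31 ± 0.04 (limma adjusted p = 0.00132), and Rsad2 (viperin) by 0.29 ± 0.04 (limma adjusted p = 0.000825), each called in all 3 fits. Ifnb1 rose by 0.34 ± 0.05, whereas Cxcl9 fell (-0.34 ± 0.06). Isg15 (0.07) and Ifit1 (-0.04) did not pass.

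Alternative activation genes included 4 risers and 1 fall of 13 tested (38.5% called, beside 16.7% of all genes). The falls numbered 3 after quantile normalization and 2 without FABP4 array 1. The fit with slide as a block called 2 higher and 1 lower. Vegfa (limma adjusted p = 0.000538) and Irf4 (0.45 ± 0.08) rose, and Ccl17, a T cell chemokine, fell (-0.38 ± 0.06, limma adjusted p = 0.00396). Mrc1 (-0.01) and Il10 (0.00) did not pass. Of 21 NRF2 antioxidant genes, 3 rose and 0 fell, a share of 14.3% called beside 16.7% of all genes. The risers were the peroxiredoxin Prdx1 (0.20 ± 0.03, limma adjusted p = 0.00168), the sulfiredoxin Srxn1 (0.26 ± 0.05, limma adjusted p = 0.00964) and Ftl1 (0.17 ± 0.04). None of these 3 passed with slide as a block. Of 14 heat shock genes, 0 rose and 3 fell (21.4% called, beside 16.7% of all genes), with 6 falls after quantile normalization and 0 with no scaling. They were led by the co-chaperone Dnajb1 (-0.22 ± 0.04, limma adjusted p = 0.00868) and Chordc1 (-0.17 ± 0.03, limma adjusted p = 0.00924). These falls were at -0.12 and -0.10 with slide as a block and did not pass.

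Several mitotic genes fell in the 12-array fit. Falls were called for 14 of 32 cell cycle genes tested (8 with no scaling), with 0 rises and 18 not called. This was 43.8% of the list, beside 6.04% of all genes, and the median log2 fold change was -0.14. Ccna2, the cyclin of S and G2 phase, had levels of 1.35, 1.39 and 1.52 with palmitic acid, against 1.68, 1.81 and 1.92 without, a log2 fold change of -0.40 ± 0.05 (limma adjusted p = 0.000845). Ccnb1, the mitotic cyclin, had levels of 2.25, 2.38 and 2.50 with palmitic acid, against 2.64, 2.70 and 2.86 without (-0.33 ± 0.04, limma adjusted p = 0.000686). For both the groups did not overlap. Others that fell were the kinases Plk1 and Aurka, the ribonucleotide reductase subunit Rrm2, Birc5, Cdc20 and Mki67, at -0.37 to -0.21. The replication licensing genes Mcm2 to Mcm7 lay at -0.02 to 0.08 and did not pass. In the fit with slide as a block and on slide 2 alone limma called 0 members, and the list's median was -0.06 and -0.07. Ccna2 was then at -0.24 ± 0.06 (limma adjusted p = 0.0843) with slide as a block and -0.25 ± 0.06 (limma adjusted p = 0.0912) on slide 2. In a bulk sample a change in the share of cycling cells and a change in RNA per cell cannot be told apart.

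**Figure D2:**
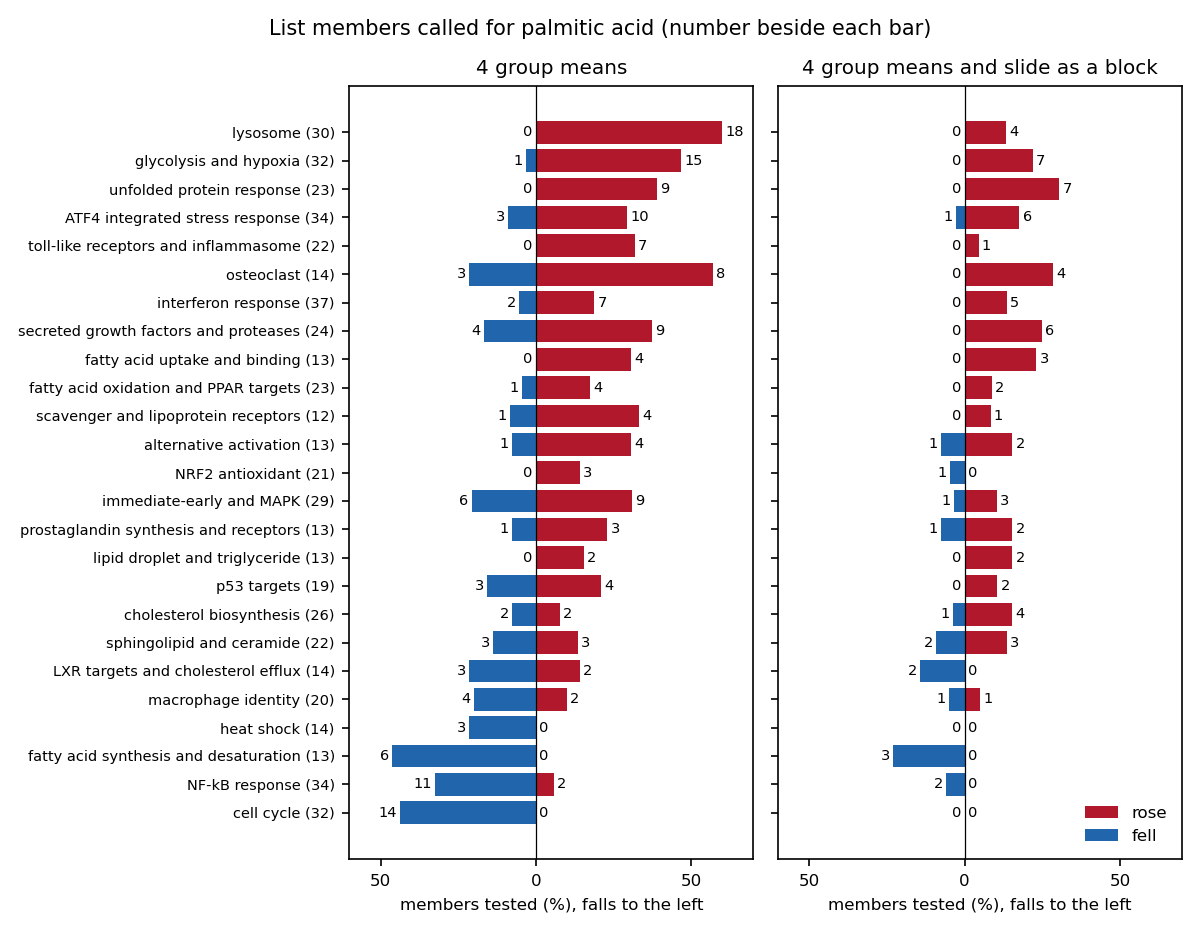
Share of the tested members of each gene list that were called for palmitic acid (horizontal axis, percent, rises to the right in red and falls to the left in blue, number of genes beside each bar, members tested in parentheses), for the 25 lists with at least 5 tested members. The left panel is the 12-array fit and the right panel the same fit with slide as a block; the lysosome list has 18 risers on the left and 4 on the right, and the cell cycle list 14 falls on the left and 0 on the right.

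The naming rule also picked the largest changes whatever their list. Dok7 had the largest rise by that rule. It encodes an adaptor that activates the receptor kinase MuSK at the neuromuscular junction. Its levels were 1.51, 1.61 and 1.67 with palmitic acid, against -0.41, -0.22 and -0.12 without, and the log2 fold change was 1.83 ± 0.05 (3.56-fold, limma adjusted p = 2.00e-08). Lrrc32 encodes GARP, which holds latent TGF-beta at the cell surface. It had levels of -0.47, -0.32 and -0.19 with palmitic acid, against -2.17, -1.89 and -1.75 without, a log2 fold change of 1.60 ± 0.08 (limma adjusted p = 4.83e-06). Both genes were separated between the groups by more than 1 log2 unit, where the naming rule itself required arrays without overlap and took the largest changes. Gm13889 rose by 1.39 ± 0.07 (limma adjusted p = 4.83e-06), and Crispld2, a secreted protein of the CAP family, by 1.33 ± 0.10 (limma adjusted p = 4.82e-05).

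Pilra, an inhibitory receptor of myeloid cells, had the largest fall by the naming rule. Its levels were 0.75, 0.89 and 1.01 with palmitic acid, against 1.81, 1.88 and 1.93 without, a log2 fold change of -0.99 ± 0.04 (limma adjusted p = 1.93e-06). Of its 3 further probes, those at -1.07 and -0.87 had the same sign and that at 0.26 the opposite one, with an unadjusted p of 0.103 in the same limma fit. N4bp3 (-0.81 ± 0.10, limma adjusted p = 0.000854) and Plbd1, which resembles phospholipase B (-0.76 ± 0.13, limma adjusted p = 0.0045), also fell, and Plbd1 did not pass with slide as a block (-0.65 ± 0.24, limma adjusted p = 0.183). On none of the 6 arrays with palmitic acid was F930015N05Rik well above background. Its change is a bound, taken against the lowest signal that counted as above background on each array, and was at least 1.54-fold lower with palmitic acid (measured mean levels -3.65 with and -2.88 without, limma adjusted p = 0.0114).

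**Figure D3:**
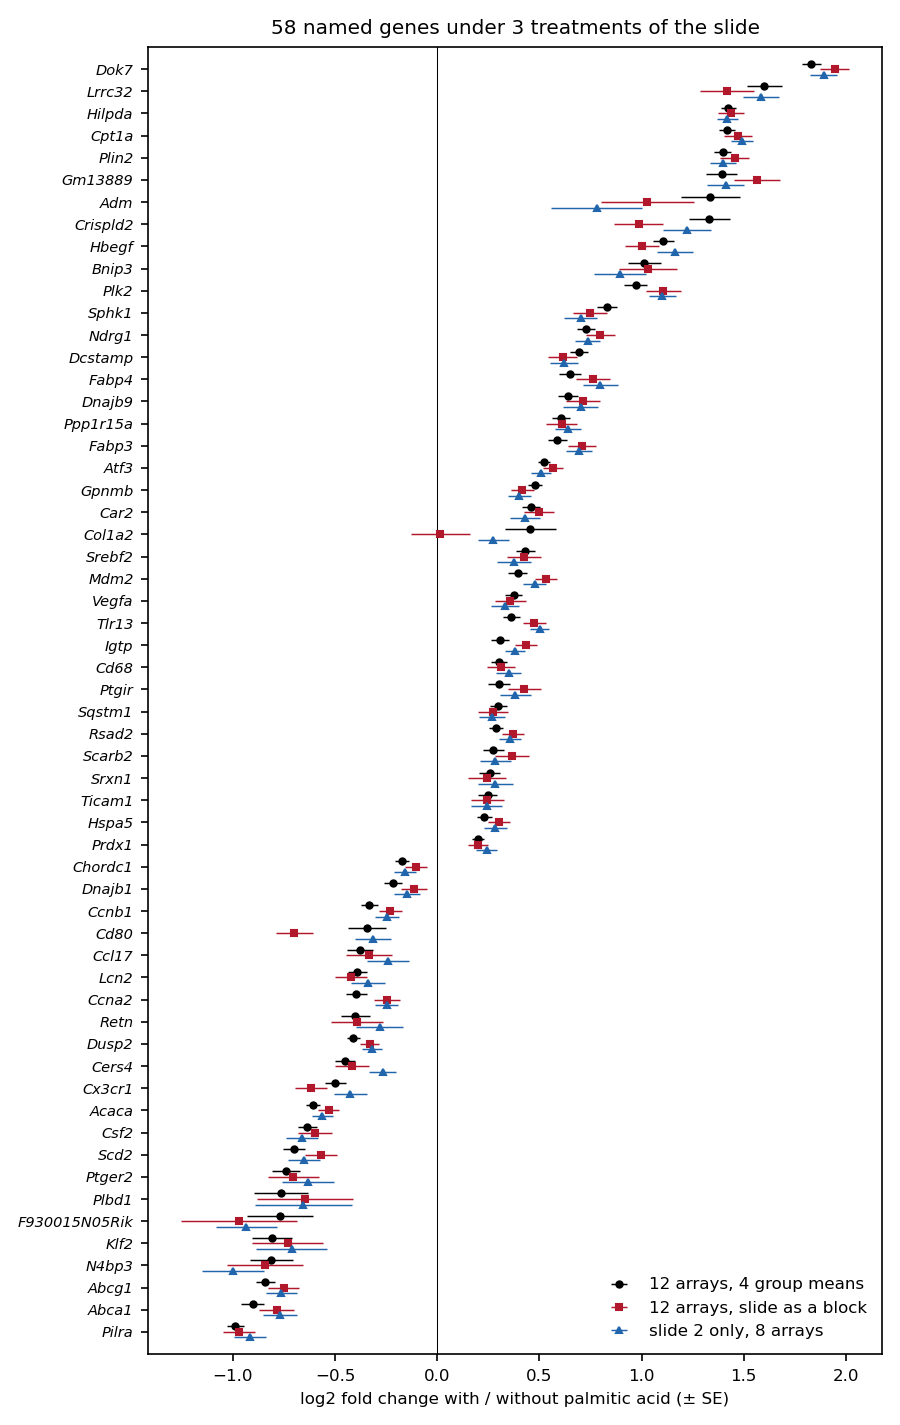
Log2 fold change with over without palmitic acid (horizontal axis, ± SE) for 58 of the 59 genes named for the main effect, in the 12-array fit with 4 group means (black), the same fit with slide as a block (red) and slide 2 alone (blue). The 3 estimates lie close together for Plin2, Hilpda, Cpt1a and Dok7, and differ most for Adm, Col1a2 and Cd80.

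Of the 59 named genes, 44 were also called with slide as a block and 34 on slide 2 alone, where the fit has fewer arrays. Plin2 was at 1.40 ± 0.04 over 12 arrays, 1.46 ± 0.07 with slide as a block and 1.40 ± 0.07 on slide 2. Abca1 was at -0.90 ± 0.06, -0.78 ± 0.09 and -0.77 ± 0.08 in the same order. At the other end, Col1a2 was at 0.45 ± 0.13, 0.02 ± 0.14 and 0.27 ± 0.08, and Cd80, a costimulatory ligand, at -0.34 ± 0.09, -0.70 ± 0.09 and -0.32 ± 0.09. Row can be fitted beside slide because 1 group lay in both rows of 1 slide: palmitic acid arrays 1 and 2 were in row 1 of slide 2 and array 3 in row 2. With both slide and row as blocks 86 genes were called, 65 higher and 21 lower, and 26 of the 59 named genes were among those called. That fit was an additive model, without an interaction term, and the additive model with slide alone called 793.

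The palmitic acid effect was then set side by side in the arms with and without FABP4. With FABP4 present, 670 genes were called (3.81%), 504 higher and 166 lower. Without FABP4, 1515 were called (8.61%), 858 higher and 657 lower. A total of 456 genes called for the main effect were called in both arms. These counts are no test of a difference between the arms. The interaction had 0 called genes by limma in the 12-array fit (1219 at an unadjusted p under 0.05, lowest adjusted p = 0.30) and with slide as a random block, but 37 with slide as a fixed block, 33 higher and 4 lower, and 5 without FABP4 array 1. FABP4 itself, averaged over palmitic acid, also had 0 called genes (938 at an unadjusted p under 0.05, lowest adjusted p = 0.416), and 39 with slide as a fixed block, 8 higher and 31 lower. The arms lay unevenly over the slides, and that fit takes its slide term from the 3 FABP4 arrays alone. Plin2 rose by 1.37 ± 0.06 with FABP4 and 1.42 ± 0.06 without, and Cpt1a by 1.46 ± 0.06 with FABP4 and 1.37 ± 0.06 without. Abca1 was at -0.83 ± 0.08 with FABP4 and -0.98 ± 0.08 without.

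A comparison between arms that share no array was possible by setting palmitic acid with FABP4 against FABP4 arrays 2 and 3, all on slide 2, beside palmitic acid against control. Of the 1515 genes called without FABP4, 1337 (88.3%) had the same sign in the 5 arrays of slide 2. In the additive fit of all arrays on slide 2, 195 of them were called. Only the fold changes of the 2 sets share no array. The calls do share arrays, because each fit also took its variance from arrays outside its set. In the slide 2 fit these were the palmitic acid arrays, which are the treated arrays of the other set. Over all genes tested the share with the same sign was 60.6%. Among the 1515, which were chosen by their effect without FABP4, the median ratio of the slide 2 effect to that effect was 0.53. Across genes, which are not independent replicates, Pearson's r was 0.663 for the called genes and 0.223 for all. The 2 sets of arrays share the cell line and platform. In the first set the groups lay in different rows of slide 2, and in the second the controls were on the other slide.

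**Figure D4:**
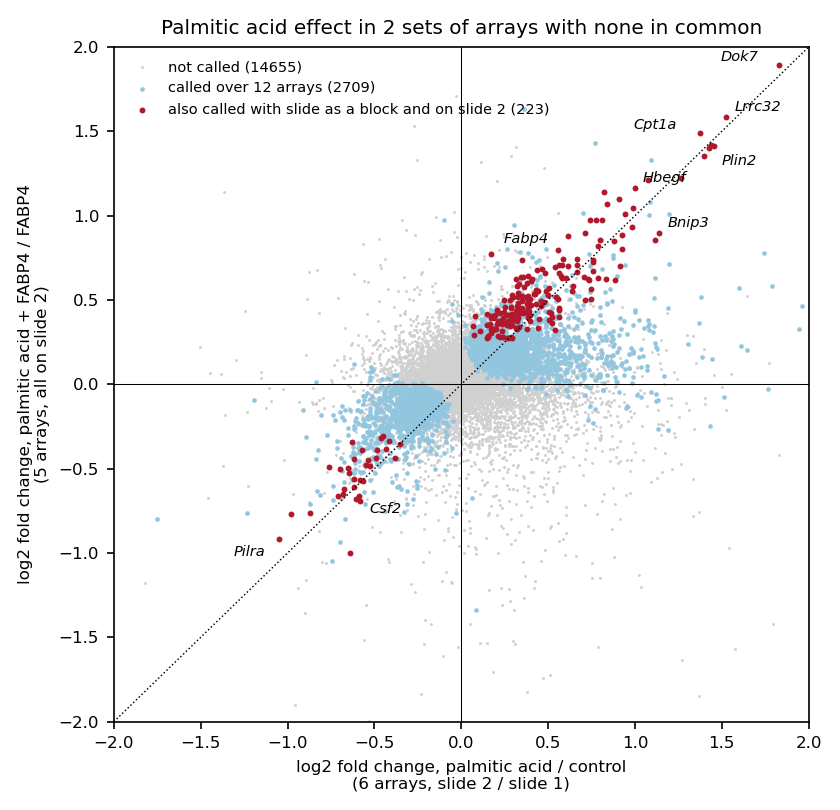
Palmitic acid effect in 2 sets of arrays with none in common, as log2 fold changes: palmitic acid with FABP4 over FABP4 on slide 2 (vertical axis, 5 arrays) against palmitic acid over control (horizontal axis, 6 arrays). Points are genes, with 223 called in all 3 fits in red, others called over 12 arrays in blue and the rest in grey; 15 genes lie outside the axes. The red points lie along the diagonal, while many of the blue points have a larger value on the horizontal axis. Red required a call in the slide 2 fit of the vertical axis. Blue genes lacked that call or the call with slide as a block. The places of both colours follow in part from this choice and are no check of agreement.

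For the interaction, the 6 smallest p-values among genes with an official symbol belonged to Lrrc14, Fam107a, Csmd1, Suox, Prpf38b and 4930565N06Rik. None of them passed (limma adjusted p = 0.425 to 0.475), and the lowest limma adjusted p over all genes tested was 0.30. Fam107a was at 0.11 ± 0.08 with FABP4 and -0.52 ± 0.08 without. Lrrc14 was at -0.32 ± 0.05 with FABP4 and 0.12 ± 0.05 without. Csmd1 and 4930565N06Rik were well above background only on the 3 arrays with both agents, so their values rest on signals near the limit of detection on the other 9 arrays. Cers4, which was called for the main effect, was at -0.28 ± 0.07 with FABP4 and -0.62 ± 0.07 without, and this difference did not pass either (interaction 0.34 ± 0.10, limma adjusted p = 0.633).

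Among 24 markers of other cell types, 4 were above background on all arrays, among them 2 neutrophil genes whose signals lay well over the 75th percentile of their array. S100a8 had 2577 to 3331 intensity units on arrays with palmitic acid and 2880 to 3352 on arrays without, and Elane had 1104 to 1429 with palmitic acid and 864 to 1120 without. Neither passed for palmitic acid. The defining neutrophil markers Ly6g, S100a9 and Ltf were above background on no array. Of 6 adipocyte markers, 0 were above background on all arrays and 5 on none, and their summed level in units of the array's 75th percentile was 0.215 to 0.282 with palmitic acid and 0.154 to 0.277 without. Retn, an adipokine of the wider adipocyte list, fell (-0.40 ± 0.07, limma adjusted p = 0.00493), but did not pass with slide as a block (limma adjusted p = 0.142) or on slide 2 (0.256). Of 6 fibroblast markers 1 was above background on all arrays, Col1a2, and it rose by 0.45 ± 0.13 (limma adjusted p = 0.0348) but was at 0.02 with slide as a block. The fibroblast sum was 0.348 to 1.74 with palmitic acid and 0.261 to 0.329 without. It includes Dcn at 450 intensity units on palmitic acid array 1, where every other array had at most 24.7. No fibroblast marker but Col1a2 was above background on more than 1 array. Dendritic cell markers had 1 of 6 above background on all arrays, Zbtb46, and sums of 0.578 to 0.692 with palmitic acid and 0.592 to 0.681 without. The summed level of the 6 neutrophil markers was 13.7 to 15.9 with palmitic acid and 15.0 to 16.0 without. The part of these markers in any result was not tested.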

How the data were processed

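Per the labels' protocols, total RNA of 12 RAW264.7 samples was labelled with Cy3 for 1-colour Agilent mouse arrays. Per the file headers, Agilent Feature Extraction 10.7.3.1 made the deposited processed intensity of each spot (linear, background-subtracted) and its flags. The authors' deposited value table matched this intensity within 0.005, so it is linear and not scaled between arrays. Groups came from the labels, and slide and row from the array identifiers. Probe positions were of mouse build mm9, and names came from a RefSeq table of another build, so the exon or UTR behind each probe was not looked up.

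Control and outlier spots were left out, and spots of a probe were averaged (55681 probes; 10 missing values among genes tested). Accessions of 27235 probes matched this RefSeq list. Values were log2 intensity minus the log2 of each array's 75th percentile over non-control spots. A probe was kept if every array of some group had it well above background (23911 probes), and the brightest kept probe represented its gene (17587 genes, 12315 with a current symbol). Of 1013 further probes of called genes, 835 agreed in sign, and 45 went the other way at an unadjusted p under 0.05.

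Files were read in R 4.3.3 (data.table package, version 1.17.8), and group means were fitted over 12 arrays with limma 3.58.1 (two-sided, moderated by eBayes). On simulated data with 200 changed genes among 17587, this fit of the palmitic acid main effect called 37.3% of log2 changes of 0.25, 79.1% of 0.5 and 92.4% of 1, and 10 of 17387 unchanged genes. The simulated noise was independent between arrays, with no slide or row effect. These shares therefore do not say how many of the real calls follow slide or row. Alternatives covered scaling, background (normexp, offset 50), filters, probe choice, slide, row, replicate number and single arrays. Figures were drawn with matplotlib 3.10.9 and pandas 2.3.3 in Python 3.11.15.

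The named genes are Fabp4, Plin2, Cpt1a, Abca1 and Abcg1, then, of called genes with an official symbol and no overlap between arrays, the 8 that rose and the 8 that fell most. To these come the 2 smallest p-values among called members of each of the 29 gene lists (636 genes, 534 tested, 1 not on the array). The 6 smallest interaction p-values among genes with an official symbol complete them. Other list members named with values were chosen after their values were seen. The comparison, members and lists were chosen with earlier results of these data known. The neutrophil list, with 4 genes tested, had 0 called by limma. Values of some list members, among them 1 gene that the naming rule chose, are not reported here.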

Additional observations from a re-analysis of the deposited data

Results flagged for a closer look

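In 130 groups of 6 arrays, formed by each named gene with and without palmitic acid, 5 had 1 array that stood apart from the other 5. Chance gives this in about 1 in 20 groups. Fabp4 was at 2.02 on palmitic acid array 2, where the nearest of the other arrays with palmitic acid was at 2.26. Abca1 was at 0.68 on FABP4 array 3, with the nearest array without palmitic acid at 0.88. Dnajb9 was at 1.20 on the same array, with the nearest at 1.37. Srebf2 was at 2.68 on array 3 of palmitic acid with FABP4, with the nearest at 2.82. Csmd1 was at -4.04 on control array 1, with the nearest at -5.61. None of the first 4 of these arrays reached the range of the other condition.

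Outside the tested genes, 2 fibroblast markers gave a signal on 1 array each. Dcn had 450.0 intensity units on palmitic acid array 1 and at most 24.7 on the other 11 arrays. Col3a1 had 137 intensity units on array 2 of palmitic acid with FABP4 and at most 17.9 on the others. Neither was seen on a second array of its group.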

How the results depend on the processing

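The main effect was called for 2932 genes. The count was 1783 with no scaling and 1278 with no filter on dim probes. It was 539 with slide as a block, 907 with slide as a random block (correlation 0.346) and 260 on slide 2 alone. In additive models it was 793 with slide as a block and 86 with slide and row as blocks. It was 1924 to 3079 when single arrays were left out (1924 and 1943 without arrays 1 and 2 of palmitic acid with FABP4). Quantile normalization gave 3236 (1693 higher, 1543 lower), the percentile over probes above background 3133 (1608 and 1525) and no scaling 1468 higher and 315 lower, with medians over all genes of 0.002, 0.02 and 0.07. Without FABP4 the count of 1515 became 3055 with no scaling (2945 higher, 110 lower), 513 with no filter, 138 with slide as a block and 191 as a random block, and 655 to 2716 without single arrays, highest without FABP4 array 1, and lower by over 1.5 times without control arrays 1 and 3 (655, 677) and palmitic acid arrays 1, 2 and 3 (928, 728, 906). With FABP4 the count of 670 became 159 with no scaling (67 higher, 92 lower), 185 with no filter and 408 with the replicate block, and 247 to 603 without single arrays, lower by over 1.5 times without arrays 1, 2 and 3 of palmitic acid with FABP4 (247, 261, 339) and FABP4 array 2 (298). The interaction had 3 calls with no scaling, 37 with slide as a block and 0 to 5 without single arrays. The FABP4 effect, for which alternatives were added after seeing the data, had 39 with slide as a block and 0 to 10. The cause of these shifts was not tested.

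Of the 59 genes named for the main effect, 57 were called whichever array was left out, and 54 under every alternative without a slide or row term. Cd80 was lost in 10 of 12 omissions (highest limma adjusted p = 0.0785) and Col1a2 in 7. Col1a2 turned to -0.046 with slide and row as blocks (limma adjusted p = 0.961). The replicate block gave 2656 for the main effect. Replicate numbers did not pair the arrays: deviations of arrays with the same number correlated at -0.0777 to 0.168, 1 of 18 pairs was over 0.1, and 0 arrays were nearest to their own number.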

Other observations

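Of the genes called in all 3 fits with a symbol, 162 were in no list and outside the naming rule; those given here were chosen after their values were seen. Tent5c, a poly(A) polymerase, rose by 1.09 ± 0.08 (log2 fold change ± SE, limma adjusted p = 2.9e-05), with 1.10 in cells with FABP4 and 1.08 in cells without. The glycolytic enolase Eno2 rose by 0.97 ± 0.07. Rgs1, which shortens G protein signalling, rose by 0.83 ± 0.07, the interleukin 7 receptor gene Il7r by 0.81 ± 0.08 and the endothelial protein C receptor gene Procr by 0.70 ± 0.03. Bhlhe40, a repressor of the clock and hypoxia responses, rose by 0.61 ± 0.04. Angpt2, an angiopoietin, rose by 0.88 ± 0.10. Among the falls were the formyl peptide receptor Fpr1 (-0.73 ± 0.06), the Src-family kinase Fgr (-0.62 ± 0.04), the adenosine receptor Adora2b (-0.58 ± 0.05), the differentiation inhibitor Id1 (-0.61 ± 0.05) and Nfatc2 (-0.57 ± 0.04).

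Gene families grouped by name differed in how many members were called, where 10.6% of all genes tested rose and 6.04% fell. Of 18 vacuolar proton pump subunits, 9 rose and 0 fell (median 0.12), and of 13 cathepsins 7 rose and 1 fell (median 0.17). Among 17 MAPK phosphatases 7 rose and 3 fell, and among 16 integrins 5 rose and 2 fell. Of 185 solute carriers, 26 rose and 20 fell (median 0.02). By contrast, 1 of 83 cytosolic ribosomal protein genes, 0 of 37 complex I subunits and 0 of 17 ATP synthase subunits were called, with medians of 0.05, 0.01 and 0.03. With slide as a block the proton pump subunits had 2 risers and the cathepsins 1, where 2.42% of all genes tested rose.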
